A study of Rattus norvegicus with 18 samples.

Results

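The transcripts described here are 6 messenger RNAs of the rat mitochondrial genome, followed across 18 RNA libraries of primary rat hepatocytes, the main metabolic cells of the liver, kept in culture. They are mt-Co1 (ENSRNOT00000050156.3, 1545 bases), mt-Co2 (ENSRNOT00000043693.3, 684 bases), mt-Co3 (ENSRNOT00000049683.3, 784 bases), mt-Cytb (ENSRNOT00000042098.3, 1143 bases), mt-Atp8 (ENSRNOT00000046201.3, 204 bases) and mt-Atp6 (ENSRNOT00000046108.3, 681 bases). They were taken by identifier, 6 of the 30897 transcripts in each table, and the listed lengths matched the given ones for all 6. The gene names come with that list of identifiers and not from the deposited tables, which hold identifiers only.

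Every library came from hepatocytes held for 6 h in medium with 0.1% DMSO, so the controls carried the solvent too. The control group (n = 3) received the solvent alone. The other groups received acetaminophen (APAP, a painkiller that harms the liver in overdose) at 3 mM (n = 4), carbon tetrachloride (CCl4, a solvent; n = 3), TCDD (the dioxin that activates the aryl hydrocarbon receptor) at 1 nM (n = 4), or trichloroethylene (TCE, an industrial solvent) at 1 mM (n = 4). For CCl4 no dose was found in these sources, and the treatment protocol, which describes the other doses as sub-toxic, does not name CCl4. Nothing in the labels ties replicates to distinct animals or culture dishes. The p-values therefore describe spread between libraries that may be technical. Hepatocyte and other cell type markers could not be located among the identifiers and are not analysed here.

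Mitochondrial DNA is transcribed as long RNAs that are cut into the separate transcripts, so its genes share their promoters and differ in level mainly through processing and decay of the RNA. mt-Co1, mt-Co2 and mt-Co3 encode the catalytic core of cytochrome c oxidase (complex IV), which passes electrons to oxygen. mt-Cytb encodes cytochrome b, the mitochondrially encoded subunit of complex III, and mt-Atp8 and mt-Atp6 encode subunits of the membrane part of ATP synthase (complex V). The reading frames of mt-Atp8 and mt-Atp6 overlap and lie on a shared RNA, so reads from the overlap can match both entries. The estimated counts of both were whole numbers in every library, so no fractional split between them is seen. How reads from the overlap were assigned was not tested, and the separate values keep that uncertainty. Hepatocytes hold many mitochondria, and these transcripts are among the most abundant in liver.

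Total estimated counts were 9280367 to 11479466 in 17 libraries and 6563387 in TCDD replicate 1. In that library 27416 transcripts had any count, compared with 19151 to 19801 elsewhere, and it stood apart for most of the 6 transcripts as well. It is therefore shown apart, and each result that rests on it is given with it (18 libraries) and without it (17 libraries). None of the 6 was lost to the filter on low counts, and all 108 of their 108 counts were whole numbers, within a tolerance of 0.000001.

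Cytochrome oxidase subunit mt-Co1 was the most abundant of the 6. Levels are given as TPM, counts divided by effective length and scaled to the same total in every library, which can be compared between genes. Over the 17 libraries, mean TPM was 12037 ± 1722 (SD) for mt-Co1, 2782 ± 264 for mt-Co2, 2599 ± 604 for mt-Co3, 1475 ± 370.3 for mt-Atp6, 991 ± 201 for mt-Atp8 and 566 ± 194 for mt-Cytb. By this mean, mt-Co1 ranked 4 of 30897 transcripts, mt-Co2 ranked 46, mt-Co3 ranked 50, mt-Atp6 ranked 100, mt-Atp8 ranked 164 and mt-Cytb ranked 276. The neighbours mt-Co2 and mt-Co3 differed by less than their spread over libraries. mt-Co1 also held 79.3% ± 1.62 of the counts of the 6 in these 17 libraries. The effective length of mt-Atp8, the span in which a fragment can start, was only 52.3 to 56.9 bases, so its TPM rests on 345 to 767 counts and a short denominator.

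The TPM of mt-Co1 was 13199, 12674.5 and 12377 in the control libraries and 15969, 14629.9, 13467 and 13499 with APAP. It was 11932, 10959.6 and 11447 with CCl4, and 10171, 10259.6, 10640.3 and 10431 with TCE. TCDD replicate 1 was at 12528 and the other TCDD libraries at 10299, 10213 and 12463. Every APAP library lay above every control library, and every CCl4 and TCE library lay below them, while TCDD ran from below the control range into it. For mt-Co1, the groups run in the order APAP (14391 ± 1183, SD), control (12750.1 ± 416), CCl4 (11446 ± 486), TCDD without replicate 1 (10992 ± 1275) and TCE (10376 ± 207). CCl4 and TCDD, and TCDD and TCE, are neighbours whose difference was smaller than the spread within TCDD.

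For mt-Co2, control TPM was 2798, 2775 and 2791, the narrowest spread of any group for these 6 transcripts. APAP gave 3001, 2733, 2516 and 2501, CCl4 gave 2534, 2357 and 2373, and TCE gave 2922, 2886, 3186 and 2663. TCDD replicate 1 was at 8126 and the other 3 TCDD libraries at 3192, 3037 and 3036. The CCl4 libraries were below and the TCDD libraries above every control, and both APAP and TCE spanned the control values.

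The third oxidase transcript, mt-Co3, had a wider control range, with TPM of 3280.2, 3426 and 2385. APAP libraries were at 3446, 3956, 2930.4 and 2481. CCl4 libraries were at 2367, 2101 and 2305, and TCE libraries at 1941, 1958, 2066 and 2444. TCDD replicate 1 was at 6865, above all other libraries, and the other TCDD libraries at 2178, 2148 and 2778. Control replicate 3 sat close to the CCl4 and TCE libraries, and only CCl4 lay wholly below the control group.

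Cytochrome b, the least abundant of the 6, had TPM of 769, 912 and 513 in the controls and 816, 967, 670.3 and 544 with APAP. CCl4 gave 530.3, 481 and 548, and TCE gave 361, 345, 382 and 508. TCDD replicate 1 was at 5593 and the other 3 at 386, 392 and 499.7. All TCE libraries and TCDD replicates 2 to 4 were below the lowest control, Control replicate 3, and CCl4 overlapped it.

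Of the ATP synthase transcripts, mt-Atp6 was at 1899.9, 2107 and 1274 in the controls, and at 1944, 2284, 1620.0 and 1326 with APAP. CCl4 gave 1318, 1127 and 1314, TCE gave 1111, 1047, 1165 and 1348, and TCDD gave 5702 in replicate 1 and 1325, 1307 and 1555 in the others. For mt-Atp8, controls were at 1246, 1167 and 872, APAP at 1404, 1373, 1064 and 945, CCl4 at 857, 754 and 826, and TCE at 857, 761, 921 and 829. TCDD replicate 1 was at 9094 for mt-Atp8 and the others at 940.1, 1073 and 954. Both transcripts were lowest in Control replicate 3 among the controls, and with TCDD replicate 1 aside all groups reached into the control range except mt-Atp8 with CCl4, which lay below it.

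**Figure D1:**
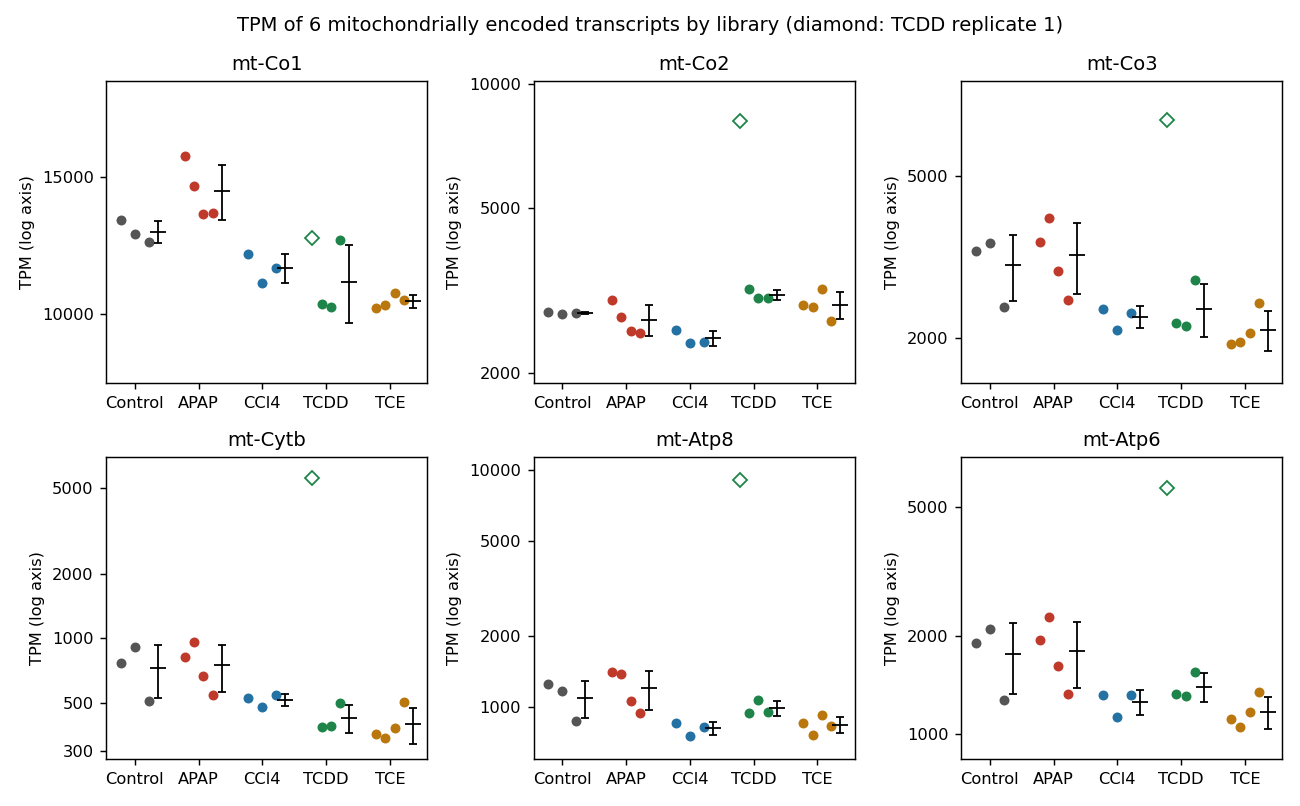
TPM of the 6 transcripts in each of the 18 libraries on a log axis, by group; bars are the group mean ± SD, computed without TCDD replicate 1, which is the open diamond. The diamond lies above all other libraries in every panel except mt-Co1, where it is at 12528.

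TCDD replicate 1 differed from the other TCDD libraries by an amount that depended on the transcript. Its TPM was 1.14 times the mean of the other 3 for mt-Co1, 2.63 times for mt-Co2, 2.90 times for mt-Co3 and 4.09 times for mt-Atp6. For mt-Atp8 it was 9.20 times and for mt-Cytb 13.1 times that mean. Against the highest of all other 17 libraries, it was 5.79 times higher for mt-Cytb and 6.48 times higher for mt-Atp8, but 0.785 times as high for mt-Co1. mt-Co1 made up 50.2% of the counts of the 6 in this library, against 75.9% to 82.2% in the others. The 7 other rows that lie among the first 13 rows with the 6 held 2.74% of counts there and 0.173% to 0.407% elsewhere. The part of these library differences in the TCDD results was not tested, and both sets of values stand side by side below.

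The 6 transcripts together took 1.86%, 1.75% and 1.78% of all counts in the controls, a mean of 1.80% ± 0.0599 (SD, n = 3). With APAP the share was 2.33%, 2.15%, 2.03% and 2.07%, with a mean of 2.15% ± 0.129 (n = 4). With CCl4 it was 1.72%, 1.62% and 1.62% (1.65% ± 0.0569, n = 3), and with TCE 1.41%, 1.42%, 1.48% and 1.43% (1.43% ± 0.0299, n = 4). It was 3.19% in TCDD replicate 1 and 1.42%, 1.39% and 1.78% in the other TCDD libraries. The share of counts was above all controls in every APAP library and below them in every CCl4 and TCE library. As a share of TPM, the APAP libraries overlapped the controls, at 2.13% to 2.66% against 2.02% to 2.32%. The CCl4 libraries (1.78% to 1.95%) and the TCE libraries (1.73% to 1.84%) stayed below the controls on that measure. The share of counts needs no scaling factor, but it is a share of RNA. Fewer mitochondria-rich cells and less of these RNAs per cell cannot be told apart in bulk samples.

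The difference from the control was 0.350 percentage points for APAP and -0.365 for TCE, each with p = 0.05714 in an exact two-sided permutation test, the smallest p that 3 against 4 libraries allow, and an adjusted p of 0.143 over 5 such tests. For CCl4 it was -0.144, with an exact permutation p of 0.100, the smallest for 3 against 3, and an adjusted p of 0.167. For TCDD it was 0.149 with an exact permutation p of 1.00, and -0.267 without replicate 1. None passed the adjusted threshold of 0.05, which these group sizes cannot reach. APAP against the other 3 compounds together, which leaves out the shared controls, differed by 0.467 percentage points (exact permutation test, adjusted p = 0.181), and by 0.619 without TCDD replicate 1, with no overlap (adjusted p = 0.00999, exact permutation test).

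Per transcript, libraries were compared with edgeR's quasi-likelihood test after TMM scaling, fitted over all transcripts. Calls were made where the p adjusted over all tested transcripts (Benjamini-Hochberg) was under 0.05. All 4 comparisons with the control share the same 3 control libraries. In the 18-library fit, APAP raised mt-Co1 and none of the other 5 was called. mt-Co1 was 1.52-fold higher (log2 fold change 0.60 ± 0.15 SE, edgeR adjusted p = 0.00312), 1 of 6 members called higher, against 19.6% of all tested transcripts called higher. The other members had log2 fold changes of 0.37 to 0.56 with SE of 0.36 to 0.83 and edgeR adjusted p of 0.348 to 0.699. The 5 groups share 1 estimate of the spread, and without TCDD replicate 1 the SE of these 5 members was 0.08 to 0.17.

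Without TCDD replicate 1, the same APAP differences had smaller errors and all 6 members were called higher, against 22.5% of all tested transcripts. mt-Co1 rose by a log2 fold change of 0.60 ± 0.09 (edgeR adjusted p = 6.11e-05), mt-Co2 by 0.37 ± 0.08 (adjusted p = 0.00151) and mt-Co3 by 0.50 ± 0.13 (adjusted p = 0.00332). The ATP synthase members rose by 0.56 ± 0.11 for mt-Atp8 (edgeR adjusted p = 0.000629) and 0.45 ± 0.14 for mt-Atp6 (adjusted p = 0.0124), and mt-Cytb by 0.46 ± 0.17 (adjusted p = 0.0294). The median of the 6 was 0.48, beside -0.04 over all transcripts tested. Outside mt-Co1 the APAP calls rested on the scaling: with scaling to total counts 1 of 6 stayed called higher, against 11.1% of all transcripts, mt-Co1 at 0.29 (edgeR adjusted p = 0.00532), and the others were at 0.06 to 0.25, while the median over all transcripts moved to -0.36. On the TPM scale mt-Co2 was lower with APAP (2687 ± 234, SD) than in the control (2788 ± 11.8). Mean TPM with APAP and in the control was 3203 and 3030 for mt-Co3, and 749 and 731 for mt-Cytb. It was 1197 and 1095 for mt-Atp8, and 1793 and 1760 for mt-Atp6. On that scale all of these overlapped the controls, and only mt-Co1 did not. How many of all transcripts lay clear of the controls on that scale was not computed. Leaving out Control replicate 3 as well left 4 of 6 called higher, against 20.9% of all transcripts, without mt-Cytb (0.29, edgeR adjusted p = 0.158) and mt-Atp6 (0.29, adjusted p = 0.0764), and leaving out APAP replicate 1 or 2 lost mt-Cytb (edgeR adjusted p = 0.0705 and 0.0824).

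TCE lowered 5 of the 6 transcripts in the 17-library fit, all but mt-Co2, against 2.70% of all tested transcripts called lower. mt-Cytb fell most, by 0.96 ± 0.16 on the log2 scale, to 0.515 times the control level (edgeR adjusted p = 0.0102). mt-Atp6 fell by 0.68 ± 0.14 (edgeR adjusted p = 0.0165), mt-Co3 fell by 0.62 ± 0.12 (adjusted p = 0.0165), mt-Atp8 fell by 0.50 ± 0.11 (adjusted p = 0.0254) and mt-Co1 fell by 0.39 ± 0.09 (adjusted p = 0.0296). mt-Co2 had a log2 fold change of -0.04 ± 0.08 (edgeR adjusted p = 0.870). The median of the 6 was -0.56, beside 0.01 over all transcripts. In the 18-library fit 0 of 6 were called, against 1.16% of all transcripts called in either direction. The log2 fold changes were the same, with larger errors and edgeR adjusted p of 0.180 to 0.986. By unadjusted edgeR p, 1 of 6 was under 0.05, a threshold for which no share over all transcripts was computed. On those 18 libraries DESeq2, which gave no adjusted p for mt-Cytb, mt-Atp8 and mt-Atp6, called 0, against 6.28% of all transcripts. limma voom with sample weights called 4 lower, against 15.7% of all transcripts called lower by that tool.

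The TCE calls of the 17-library fit also rested on single control libraries. Without Control replicate 1 or without Control replicate 2, 0 of the 6 were called, with mt-Cytb at -0.91 (edgeR adjusted p = 0.0596) and -0.82 (adjusted p = 0.0686). The calls lower over all transcripts went with them, to 0.024% and 0.174%. Without TCE replicate 1 (1.05% of all transcripts) or TCE replicate 2 (0.906%), 3 remained called: mt-Co3, mt-Cytb and mt-Atp6. Without TCE replicate 3 (0.561%), 4 of those 5 remained called and mt-Co1 did not (edgeR adjusted p = 0.0658).

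Under TCDD, mt-Co3, mt-Cytb, mt-Atp8 and mt-Atp6 had opposite signs with and without its first replicate, and mt-Co1 (lower) and mt-Co2 (higher) kept theirs. In the 18-library fit 0 of 6 were called, against 4.35% of all transcripts called in either direction. mt-Atp8 stood at 1.78 ± 0.77 (edgeR adjusted p = 0.160), mt-Cytb at 1.56 ± 0.86 (adjusted p = 0.266), mt-Co2 at 0.78 ± 0.37 (adjusted p = 0.189) and mt-Atp6 at 0.70 ± 0.51 (adjusted p = 0.415). mt-Co3 was at 0.37 and mt-Co1 at -0.10. Of the 6, 2 had an unadjusted edgeR p under 0.05, and the share of all transcripts at that threshold was not computed. DESeq2 called 0, against 10.4% of all transcripts, and again gave no adjusted p for mt-Cytb, mt-Atp8 and mt-Atp6. limma voom with sample weights, which gives divergent libraries less weight, called 3, all lower, against 13% of all transcripts called lower. Without replicate 1, mt-Cytb was called lower, 1 of 6 against 1.01% of all transcripts called lower. It fell by 0.85 ± 0.18 on the log2 scale, to 0.554 times the control level (edgeR adjusted p = 0.0337).

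The other members under TCDD in the 17-library fit were at -0.44 for mt-Co3 (edgeR adjusted p = 0.0866), -0.42 for mt-Atp6 (adjusted p = 0.127), -0.30 for mt-Co1 (adjusted p = 0.110) and -0.25 for mt-Atp8 (adjusted p = 0.268). mt-Co2 was at 0.04 ± 0.09 (edgeR adjusted p = 0.858). The mt-Cytb call was lost when any 1 of 8 further libraries was left out: Control replicate 1 or 2 (edgeR adjusted p = 0.173 and 0.194), TCDD replicate 2 or 3 (0.0667 and 0.0932), any CCl4 library (0.0509 to 0.0527) or TCE replicate 3 (0.0515). Without Control replicate 3, 3 of 6 were called lower, mt-Cytb (-1.02), mt-Atp6 (-0.58) and mt-Co3 (-0.55), against 6.55% of all transcripts. Without TCDD replicate 4, mt-Cytb (-1.03) and mt-Co1 (-0.45) were called lower, against 0.0841%.

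CCl4 changed none of the 6 by this test. In the 18-library fit 0 of 6 were called, against 1.74% of all transcripts, and 0 had an unadjusted edgeR p under 0.05. On those libraries limma voom (26.1% of all transcripts) and DESeq2 (5.76%) also called 0. DESeq2 gave no adjusted p for mt-Cytb, mt-Atp8 and mt-Atp6, so it could not call these. Without TCDD replicate 1, 0 of 6 were called, against 4.12% of all transcripts. The log2 fold changes were -0.40 ± 0.15 for mt-Atp6 (edgeR adjusted p = 0.137), -0.39 ± 0.18 for mt-Cytb (adjusted p = 0.218), -0.33 ± 0.13 for mt-Co3 (adjusted p = 0.169) and -0.32 ± 0.12 for mt-Atp8 (adjusted p = 0.145). mt-Co2 was at -0.12 ± 0.09 and mt-Co1 at -0.07 ± 0.10. Those first 4 had an unadjusted edgeR p under 0.05 in the 17-library fit, a threshold for which no share over all transcripts was computed. On the same 17 libraries limma voom called these 4 lower, against 14.3% of all transcripts. edgeR called those 4 lower when Control replicate 3 was left out as well, against 6.38% of all transcripts, so the absence of a call rests on that library.

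**Figure D2:**
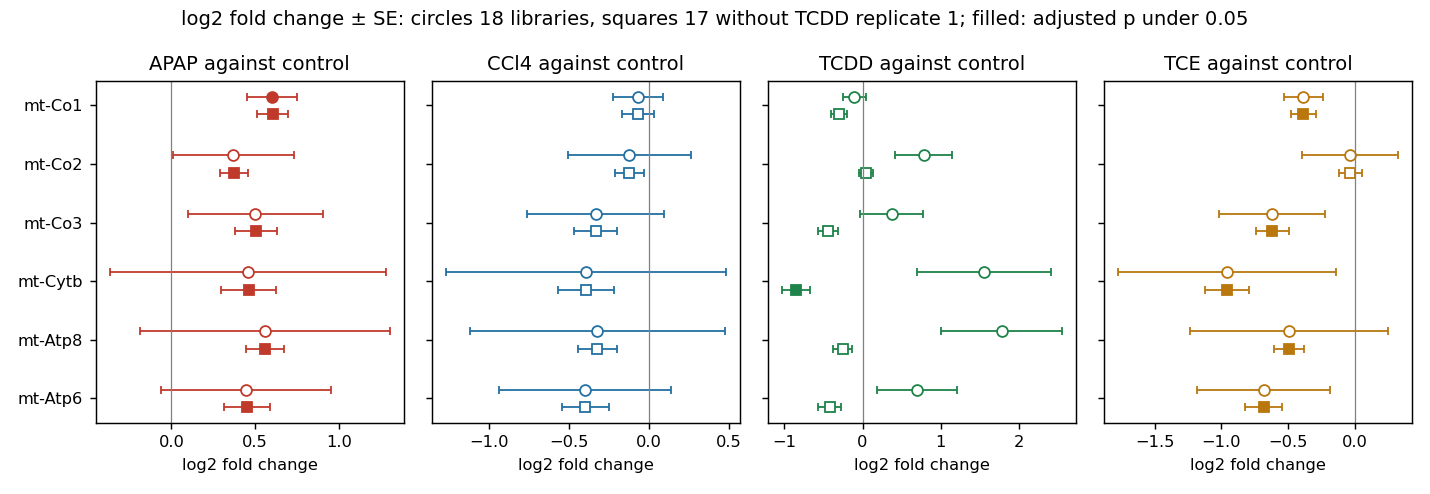
Log2 fold change ± SE of each transcript against the control from edgeR, for 18 libraries (circles) and for 17 without TCDD replicate 1 (squares); filled symbols have an adjusted p under 0.05. The APAP, CCl4 and TCE estimates lie in the same place in both fits with shorter bars in the second, while TCDD moves from 1.56 to -0.85 for mt-Cytb.

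Compounds were also compared with each other, which leaves the control libraries out. In the joint test of the 4 compounds on 18 libraries, mt-Co1 (edgeR adjusted p = 6.47e-05) and mt-Atp8 (adjusted p = 0.0368) were called, 2 of 6, against 50.7% of all transcripts. Without TCDD replicate 1 all 6 were called, against 52.1%. Since the share of called transcripts was this high over the whole table, these counts say little about the 6 in particular.

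APAP stood above the mean of the other 3 compounds for mt-Co1 in the 18-library fit, by 0.79 ± 0.11 on the log2 scale (edgeR adjusted p = 1e-05), 1 of 6 against 25.1% of all transcripts called higher. Without TCDD replicate 1 all 6 were called higher, against 27.8%. The log2 differences were 1.20 for mt-Cytb, 0.97 for mt-Co3, 0.95 for mt-Atp6, 0.92 for mt-Atp8, 0.86 for mt-Co1 and 0.41 for mt-Co2. In that 17-library comparison all 6 stayed called when any other single library was left out, against 24.7% to 28.5% of all transcripts called higher. With scaling to total counts 5 of 6 stayed called, against 12.0% of all transcripts called higher.

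Ratios between the 6 transcripts within a library need no scaling between libraries. The ratio of mt-Co2 to mt-Co1, both oxidase core subunits, lay outside the control range in 3 of the 4 compound groups. mt-Co2 TPM was 21.2%, 21.9% and 22.5% of mt-Co1 in the controls and 18.8%, 18.7%, 18.7% and 18.5% with APAP. It was 21.2%, 21.5% and 20.7% with CCl4, and 28.7%, 28.1%, 29.9% and 25.5% with TCE. TCDD gave 64.9% in replicate 1 and 31.0%, 29.7% and 24.4% in the others. All APAP libraries were below and all TCDD and TCE libraries above the controls, and CCl4 overlapped them.

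As a difference of mean log2 ratios from the control, mt-Co2 to mt-Co1 was at -0.23 with APAP, 0.67 with TCDD and 0.36 with TCE, each with an exact permutation p of 0.05714, the smallest possible, and an adjusted p of 0.381 over 20 ratio tests. With CCl4 it was -0.05 (exact permutation p = 0.3). Without TCDD replicate 1 the TCDD difference was 0.37 in place of 0.67. None of the 20 passed the threshold. Set against the other 3 compounds, which was done after these values were seen and so carries no test, the mean log2 ratio with APAP was lower, at -0.59, and at -0.47 without TCDD replicate 1, with no overlap either way.

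The mt-Co3, mt-Atp8 and mt-Atp6 ratios overlapped the control in every group once TCDD replicate 1 was set aside, and the mt-Cytb ratio did so in all but TCDD. As a percent of mt-Co1, mt-Cytb was at 5.83, 7.19 and 4.15 in the controls, at 4.03 to 6.61 with APAP, 4.39 to 4.79 with CCl4 and 3.36 to 4.87 with TCE. It was 44.6 in TCDD replicate 1 and 3.75, 3.84 and 4.01 in the other TCDD libraries, which all lay below the lowest control. Without replicate 1 the mean log2 ratio of mt-Cytb under TCDD was -0.53 from the control (p = 0.100 by an exact permutation test, as low as 3 against 3 can go). mt-Co3 was at 24.9, 27.0 and 19.3 in the controls, and mt-Atp6 at 14.4, 16.6 and 10.3. Control replicate 3 was the lowest control for each of these. mt-Atp8 was 55.4% to 82.1% of mt-Atp6 in 17 libraries and 159% in TCDD replicate 1.

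**Figure D3:**
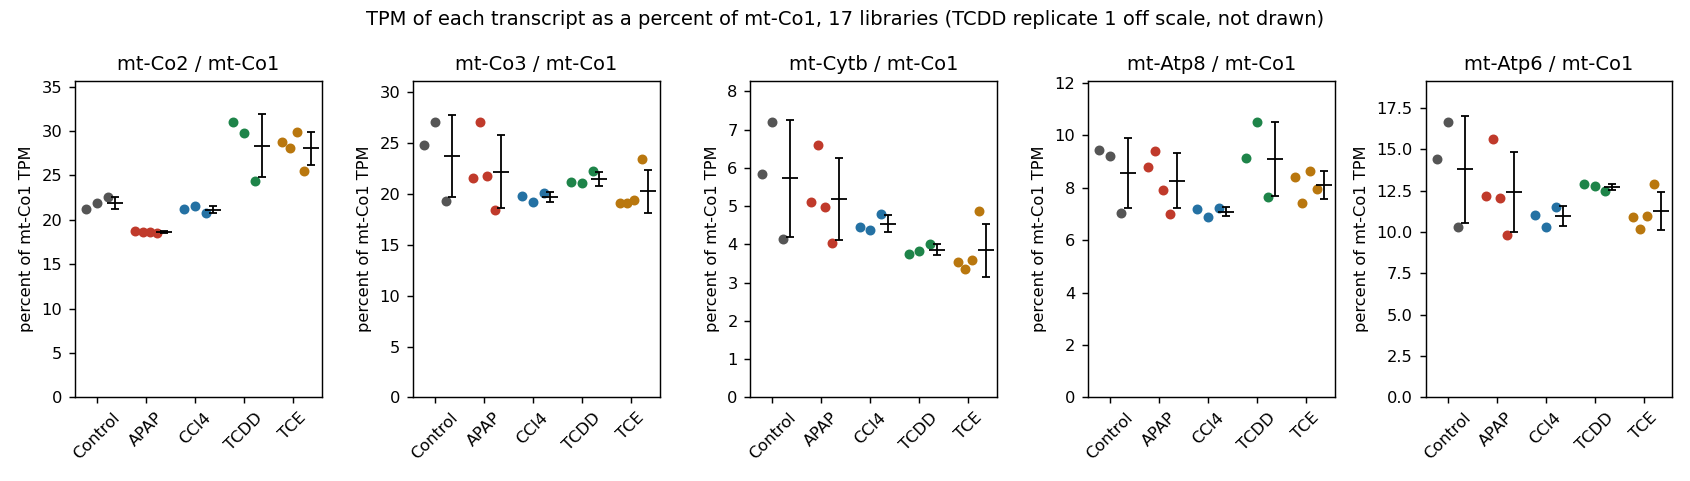
TPM of each of 5 transcripts as a percent of mt-Co1 in 17 libraries, by group, with the group mean ± SD; TCDD replicate 1 lies off the scale and is not drawn. For mt-Co2 the APAP libraries lie at 18.5 to 18.8, below the controls, and TCDD and TCE libraries above them at 24.4 to 31.0; for mt-Cytb the TCDD libraries lie below the controls at 3.75 to 4.01, and the other groups and panels overlap the controls.

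A library property, examined after the ratios were seen, moved with them. The gap between length and effective length, which reflects the fragment length that the counting program used, was 178.9, 176.6 and 186.2 bases in the controls, 179.9 to 183.6 with APAP, 179.8 to 185.6 with CCl4, 185.7 to 190.3 in TCDD replicates 2 to 4 and 184.2 to 191.0 with TCE. Control replicate 3, whose mt-Cytb ratio was lowest of the controls, had the longest gap of the controls. Over 17 libraries the log2 ratio of mt-Cytb to mt-Co1 correlated with the gap at r = -0.896 and rho = -0.912, with a permutation p of 1e-05 for both, the smallest that the permutations can give, and an adjusted p of 5e-05 over 5 ratios. Without Control replicate 2 and TCE replicate 2, the libraries farthest from the median gap, r was -0.840 (n = 15). Centred within groups, r was -0.798 and rho -0.831 (permutation test within groups, adjusted p = 0.00105 and 0.0016).

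For mt-Co2 to mt-Co1 the relation ran the other way. Pooled r was 0.732 and rho 0.764 (permutation test, adjusted p = 0.00237 and 0.00152), and r was 0.785 without the 2 farthest libraries. Within groups r was 0.413 (permutation test, adjusted p = 0.107) and rho was 0.596 (adjusted p = 0.0394), so the within-group relation passed the threshold by ranks only. For mt-Co3, r was -0.639 and rho -0.575 (permutation test, adjusted p = 0.00935 and 0.0276), -0.482 without the 2 farthest and -0.729 within groups (rho -0.748; adjusted p = 0.00232 and 0.00677, permutation test). For mt-Atp6, r was -0.581 and rho -0.471 (permutation test, adjusted p = 0.0178 and 0.0713), -0.346 without the 2 farthest and -0.758 within groups (rho -0.701; adjusted p = 0.00232 and 0.0160, permutation test). For mt-Atp8, r was -0.185 and rho -0.161 (permutation test, adjusted p = 0.477 and 0.537), 0.010 without the 2 farthest and -0.539 within groups (rho -0.483; adjusted p = 0.0949 and 0.107, permutation test). The part of this gap in the group differences was not tested.

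**Figure D4:**
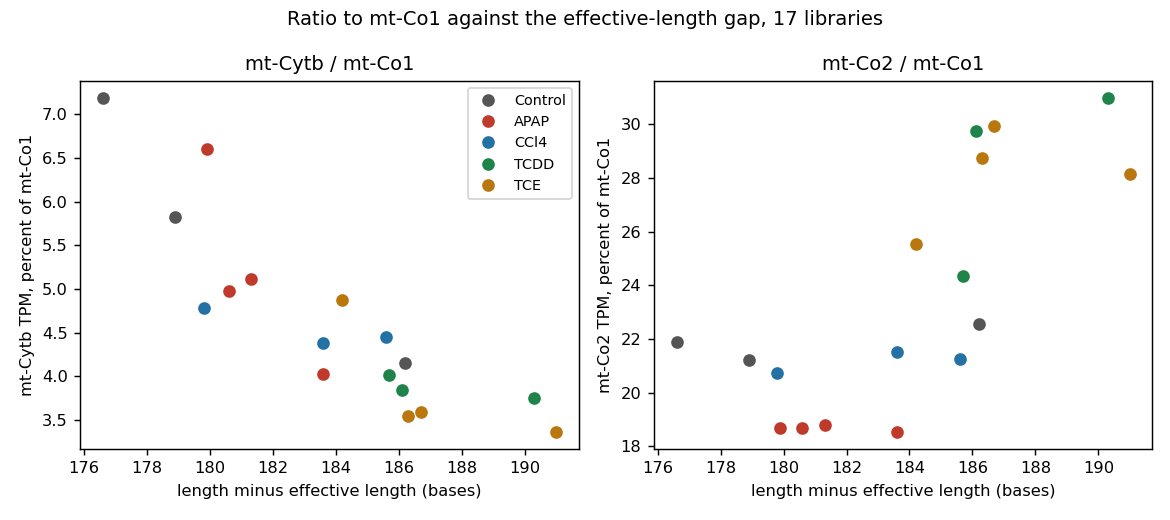
TPM of mt-Cytb and of mt-Co2 as a percent of mt-Co1, against the gap between length and effective length in bases, for 17 libraries coloured by group. mt-Cytb falls from 7.19 to 3.36 percent across the range of gaps, 176.6 to 191.0 bases. For mt-Co2 the 4 APAP libraries lie at 18.5 to 18.8 percent, within a narrow part of that range, at gaps of 179.9 to 183.6 bases.

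Short transcripts as a whole also differed between groups. Transcripts of at most 2000 bases, the 6 left out, held 47.1% to 51.8% of counts in the controls, 52.1% to 56.4% with APAP, 51.8% to 53.5% with CCl4, 49.5% to 52.5% in TCDD replicates 2 to 4, 49.2% to 51.5% with TCE and 56.2% in TCDD replicate 1. All 6 transcripts are of this length. With each library's trend with transcript length removed in the 17-library fit, 1 of 6 stayed called higher with APAP, against 26.9% of all transcripts, mt-Co1 at 0.59 (edgeR adjusted p = 4.19e-05), and the other 5 were at 0.14 to 0.33. The 5 members called lower with TCE (1.32% of all transcripts) and mt-Cytb with TCDD (0.529%) stayed called.

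Across the 17 libraries the log2 CPM (counts scaled to library size with TMM factors) of the 6 moved together, as a description over libraries that share 5 groups and a scaling. The highest correlation was between mt-Co3 and mt-Atp6 (r = 0.990), and the lowest between mt-Co2 and mt-Cytb (r = 0.554). The transcripts elsewhere in the tables whose pattern was most like the mean of the 6 were ENSRNOT00000000334.6 (r = 0.979, 2822 bases, mean 696 CPM) and ENSRNOT00000078329.1 (r = 0.969, 5529 bases, mean 259 CPM). Neither lies among the first 13 rows that hold the 6, and the deposited tables give neither a name. The 7 other rows there had r of 0.888 to 0.946 with the same mean.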

How the data were processed

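The study measured RNA in 18 hepatocyte libraries. Per the labels' protocols, TRIzol-extracted RNA was freed of DNA and made into Illumina libraries. Per the submitters' processing notes, the authors used kallisto 0.43. Build, annotation and layout of the reads: not given in the sources used here. Deposited tables by the authors list, per the file headers, length, effective length, estimated counts and TPM for each transcript; deposited TPM served for levels and ratios. The reference tables used here matched 0 identifiers, so sequences, pathway genes and marker lists were not used here.

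Counts were rounded, filtered with filterByExpr (16473 transcripts kept, 16270 without TCDD replicate 1) and fitted with group as the factor in edgeR 4.0.16 (TMM, robust, R 4.3.3). The SE came from each log2 fold change and its F statistic. Shares and log2 TPM ratios were compared by exact two-sided permutation tests, with 100000 resamples for correlations. Steps were tested on simulated data.

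Alternatives were DESeq2 1.42.0 and its size factors, limma 3.58.1 voom, total-count scaling, no filter, other thresholds, compared groups alone, replicate blocks and single libraries left out. The 17-library fit was repeated with these and with a length trend removed after seeing the data. All 6 transcripts are named, with the 2 transcripts most like them. The members, lists and tests were chosen with earlier results of these data known.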

Additional observations from a re-analysis of the deposited data

Results flagged for a closer look

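In groups of 4 libraries, the highest or lowest library was set against the others. This covered the TPM and the ratio to mt-Co1 of each transcript and the summed share, 36 sets in all. Of these, 12 had a library far from the rest, and chance alone gives about 5% of sets. The sets are not independent, since they share libraries and the ratios reuse the TPM values over the same mt-Co1. The 12 are therefore not separate observations. In TCDD replicate 1, TPM was far above the other TCDD libraries for mt-Co2 (8126), mt-Co3 (6865), mt-Cytb (5593), mt-Atp8 (9094) and mt-Atp6 (5702), and not for mt-Co1. As a percent of mt-Co1 the same library stood at 64.9 for mt-Co2, 54.8 for mt-Co3, 44.6 for mt-Cytb, 72.6 for mt-Atp8 and 45.5 for mt-Atp6. In TCE replicate 4, mt-Co3 at 23.4 and mt-Cytb at 4.87 percent of mt-Co1 lay above the other TCE libraries, at 19.1 to 19.4 and 3.36 to 3.59.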

How the results depend on the processing

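The results moved with the libraries kept and with the tool. Counts below are of the 6 transcripts called at an adjusted p under 0.05 unless another threshold is named. The shares of all transcripts beside them are of calls in either direction unless a direction is named. On 18 libraries, limma voom with sample weights called 3 for APAP, 3 for TCDD, 4 for TCE, 6 in the joint test of the compounds and 6 for APAP against the other 3 compounds, where it called 58.2%, 21.9%, 28.6%, 58.3% and 60.8% of all transcripts. Fitting only the groups compared called 6 for APAP (50.5% of all transcripts) and 1 in the joint test (48.7%). The joint count was also 1 at a threshold of 0.01 (36.3% of all transcripts), 5 at 0.1 (58.1%) and 1 with no filter (27.1%). APAP against the other compounds gave 2 at 0.1 (59.8%), with DESeq2 size factors (54.4%) and with no filter (30.8%). Leaving out 1 library gave 1 to 6 for APAP (37.5% to 50.8% of all transcripts), 0 to 1 for TCDD (0% to 10.5%) and 0 to 5 for TCE (0% to 6.8%). It gave 1 to 6 in the joint test (44.7% to 53.1%) and 1 to 6 for APAP against the other compounds (49.3% to 58.4%). The high end of each member count came without TCDD replicate 1 (in the joint test also without TCDD replicate 3). In the 17-library fit, added after seeing the data, APAP fell to 1 with total-count scaling (53.1% of all transcripts, 11.1% called higher). It also fell to 1 with the length trend removed (50.7%, 26.9% called higher). TCDD gave 4 with DESeq2 (7.54% of all transcripts), 5 with limma voom (22.6%) and 0 with only the groups compared (0.0199%), and CCl4 gave 4 with limma voom (26.5%). Leaving out 1 more library gave 0 to 3 for TCDD (0% to 10.2% of all transcripts). It gave 0 to 5 for TCE (0.042% to 12.2%) and 0 to 4 for CCl4 (0.649% to 11%). The causes were not tested. DESeq2 gave no adjusted p on 18 libraries for mt-Cytb, mt-Atp8 and mt-Atp6, which its outlier filter set aside.

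No pairing of the libraries by replicate number was seen in the correlations below, which have no reference value and cannot exclude one. For the numbers in the titles, 2 of 33 same-numbered pairs had deviations correlated above 0.1 (median -0.00725) and 5 of 18 libraries correlated best with their own number; for the numbers in the tables' names these were 2 of 32 (median -0.0198) and 4 of 18. With a replicate block by either number on 18 libraries, 1 was called in the joint test (46.3% of all transcripts by title number, 44.3% by table number). APAP against the other compounds gave 2 (53.0% and 52.5%). On 17 libraries TCDD gave 0 (0.00615% and 0%). With the block, mt-Co2 under TCE turned to 0.034 (title) or 0.012 (table), and with the block by table number, under CCl4, mt-Co1 turned to 0.030, mt-Co2 to 0.066, mt-Cytb to 0.070 and mt-Atp8 to 0.11.

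Other log2 fold changes that changed sign were mt-Co2 under TCE, at 0.041 with total counts, 0.017 with limma voom and -0.087 to 0.030 with 1 library left out, and under TCDD with limma voom mt-Co3 (-0.58), mt-Cytb (-0.88), mt-Atp8 (-0.26) and mt-Atp6 (-0.51). With 1 library left out, TCDD ran from -0.30 to 0.00142 for mt-Co1, -0.44 to 0.60 for mt-Co3, -0.85 to 1.91 for mt-Cytb, -0.25 to 2.12 for mt-Atp8 and -0.42 to 0.96 for mt-Atp6. The summed share ran from -0.267 to 0.335 percentage points for TCDD and from 0.407 to 0.619 for APAP against the other compounds. With the median of the other 5 as reference in place of mt-Co1, ratios turned for APAP to 0.046 for mt-Co3, 0.026 for mt-Cytb, 0.11 for mt-Atp8 and 0.014 for mt-Atp6. They turned for CCl4 to 0.26 for mt-Co2 and 0.053 for mt-Co3, for TCDD to -0.29 for mt-Co3, -0.096 for mt-Cytb and -0.075 for mt-Atp6, and for TCE to 0.050 for mt-Co3. With 1 library left out, the APAP ratio ran from -0.24 to 0.0061 for mt-Co3, -0.34 to 0.053 for mt-Cytb, -0.18 to 0.030 for mt-Atp8 and -0.34 to 0.0079 for mt-Atp6. The TCE ratio of mt-Atp8 ran from -0.20 to 0.0072, and the TCDD ratios from -0.13 to 0.33 for mt-Co3, -0.53 to 0.66 for mt-Cytb and -0.087 to 0.54 for mt-Atp6. Depth limited mt-Atp8 most, with 345 to 767 counts in 17 libraries. Over all transcripts and 32 alternatives, called transcripts ranged from 48 to 4304 for CCl4 (287 in the 18-library fit), from 0 to 3612 for TCDD (717) and from 0 to 4717 for TCE (191), so the backgrounds given for these compounds move with the processing as well.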
